A study of Homo sapiens with 4 samples.

Results

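Of the 10 genes chosen as interleukins and colony-stimulating cytokines of epithelial cells 9 were measured, out of 22411 genes with a transcript cluster (a probe set of the array) that the platform annotation gives 1 symbol. They were IL18, IL1A, IL1B, LIF, IL6, IL11, IL23A, CSF1 and IL32, each with 1 cluster, and CSF2 was not analysed here because no cluster carries its symbol in the annotation used. RNA came from HCT116, an established human colon cancer cell line, 48 h after lipid transfection of 50 nM siRNA against CDK8 (2 arrays) or of 50 nM control siRNA (2 arrays), and the labels call the replicates biological without saying whether cultures or days were separate. P-values therefore measure the spread between these samples, which may be technical. CDK8 is the kinase of the Mediator complex, which links transcription factors to RNA polymerase II. The labels give no siRNA sequence and do not say whether the CDK8 siRNA was a single siRNA or a pool. The design holds 1 CDK8 siRNA treatment, so loss of CDK8 and other effects of that treatment cannot be told apart.

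Interleukins and colony-stimulating factors are small secreted proteins that carry signals between epithelium and immune cells. Those of the IL-1 family (IL-1α, IL-1β, IL-18) act through receptors that recruit MYD88 and IRAK kinases to NF-κB, and IL-1β and IL-18 are made as precursors that inflammasome caspases cut. IL-6, IL-11 and LIF share the receptor chain gp130, encoded by IL6ST, and signal through JAK kinases and STAT3. CSF1 and CSF2 drive growth and survival of macrophages and granulocytes, IL23A encodes the p19 chain of IL-23, and IL-32 is a proinflammatory protein of epithelial and lymphoid cells. In the gut, IL-18 is known as a product of the epithelium itself.

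Values are log2 RMA signals, the deposited unit, in which background is subtracted, arrays are equalised and probes are summarised, and differences are on the log2 scale (CDK8 siRNA minus control siRNA), each ± its limma standard error with 2 arrays per group. A call is an adjusted p under 0.05 after Benjamini-Hochberg adjustment over all 22411 genes. CDK8, the target, had signals of 7.25 and 7.45 on the CDK8 siRNA arrays, against 9.99 and 10.04 on the control siRNA arrays, a difference of -2.665 ± 0.088 (limma adjusted p = 2.39e-04). The array floor was set by 366 olfactory receptor genes, taken to be silent in this line, whose 95th percentile lay at 4.79 in the CDK8 siRNA group and 4.87 in the control siRNA group. Some of them gave higher signals, as their 99th percentile lay at 8.83 with CDK8 siRNA and 8.53 with control siRNA. Of the 366, 21 were called higher and 4 lower. The median difference of the 366 was 0.083, so a shift of about this size was present among genes at the bottom of the scale. The median over all genes was 0.04. Arrays of a group correlated with r = 0.998 (CDK8 siRNA) and 0.999 (control siRNA) across genes, which are not independent replicates, against 0.98 to 0.981 between groups.

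IL18, IL1A, CSF1 and IL32 rose with CDK8 siRNA, 0 members fell, and the remaining 5 missed the threshold. Over all genes tested 14.3% were called higher and 15.5% lower, 29.8% in all. IL18 changed the most and was 3.90-fold higher. IL1B, IL6, IL11 and IL23A stayed near the array floor in both groups, at or under the olfactory receptor level. LIF was well above the floor in both groups and did not pass. The median difference of the 9 members was 0.225, which is the value of IL23A, a gene near the floor that did not pass. The median was 0.04 over all genes and 0.083 over the olfactory receptor genes.

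**Figure D1:**
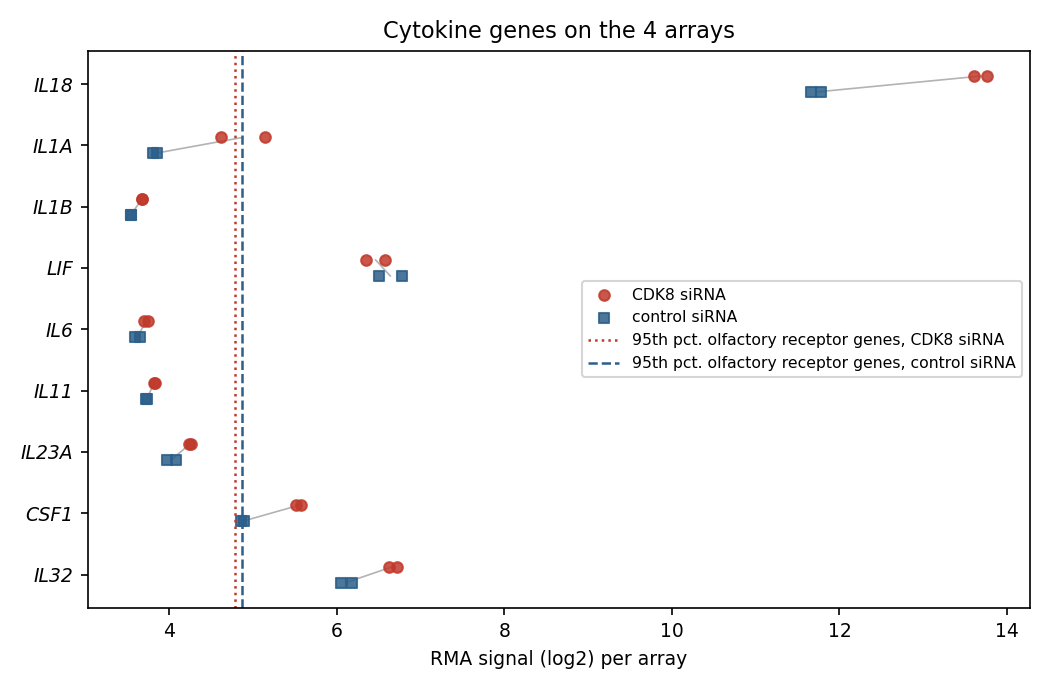
Log2 RMA signal (x axis) of the 9 cytokine genes (rows), 1 point per array, CDK8 siRNA as red circles above control siRNA as blue squares, a grey line joining the group means. The dotted and dashed lines mark the 95th percentile of olfactory receptor genes (4.79 with CDK8 siRNA and 4.87 with control siRNA), and IL1B, IL6, IL11 and IL23A lie left of both lines on all 4 arrays.

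Promoters were listed by RefSeq (GRCh38.p14) for 6 of the 9 members, IL1A, IL1B, IL6, IL11, IL23A and IL32, each as 250 bases before to 50 after a start site. Below are those of IL1A and IL32, which rose, and of IL6 and IL23A, which stayed near the floor. All of these windows hold matches to motifs searched, as does that of IL11, which is not printed. Lower case is sequence without a match, and capitals mark matches on either strand to the NF-κB motif, to the AP-1 motif TGANTCA or to the TATA box TATAAA. IL1A lies on the minus strand at chr2:112784444-112784743, IL32 on the plus strand at chr16:3065153-3065452, IL6 on the plus strand at chr7:22726950-22727249 and IL23A on the plus strand at chr12:56338634-56338933, all written 5′ to 3′ on the strand of the gene.
IL1A: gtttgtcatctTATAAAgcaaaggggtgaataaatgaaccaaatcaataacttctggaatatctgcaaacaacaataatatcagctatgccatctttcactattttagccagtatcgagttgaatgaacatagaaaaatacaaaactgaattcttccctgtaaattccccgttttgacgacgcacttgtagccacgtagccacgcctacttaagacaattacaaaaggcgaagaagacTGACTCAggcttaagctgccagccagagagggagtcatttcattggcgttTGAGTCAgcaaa
IL32: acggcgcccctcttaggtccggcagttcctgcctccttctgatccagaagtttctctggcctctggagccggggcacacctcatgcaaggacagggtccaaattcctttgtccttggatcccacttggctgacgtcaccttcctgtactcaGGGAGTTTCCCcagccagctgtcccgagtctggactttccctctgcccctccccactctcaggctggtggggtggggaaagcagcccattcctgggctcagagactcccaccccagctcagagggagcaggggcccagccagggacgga
IL6: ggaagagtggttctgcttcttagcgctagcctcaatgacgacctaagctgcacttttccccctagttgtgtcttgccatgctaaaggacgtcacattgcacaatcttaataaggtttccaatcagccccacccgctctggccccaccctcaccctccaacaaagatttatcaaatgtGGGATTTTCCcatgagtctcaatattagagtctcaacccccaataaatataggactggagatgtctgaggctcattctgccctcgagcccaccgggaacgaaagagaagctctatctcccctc
IL23A: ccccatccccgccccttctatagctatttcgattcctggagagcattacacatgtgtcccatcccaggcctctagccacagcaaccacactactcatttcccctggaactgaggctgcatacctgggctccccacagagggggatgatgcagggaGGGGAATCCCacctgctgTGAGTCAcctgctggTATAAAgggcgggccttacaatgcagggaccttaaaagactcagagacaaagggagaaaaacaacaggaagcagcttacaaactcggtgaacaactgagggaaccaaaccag
The IL1A window held 2 AP-1 matches, 1 of them upstream of the start site and 1 downstream, and 1 TATA box match far upstream, with 0 NF-κB matches. The IL32 window held 2 overlapping NF-κB matches, the IL6 window 1 NF-κB match, and the IL23A window 1 match to each of the 3 motifs. The IL1B window held 0 matches and the IL11 window 1 AP-1 match. IL1A and IL32 each have another listed start, and the overlapping window of the IL1A one holds the same 2 AP-1 sites while that of IL32 holds 0 matches. Of 35116 RefSeq promoter windows of the same length 11.27% held the NF-κB motif, 7.71% the AP-1 motif and 11.53% the TATA box. Matches to the NF-κB motif stood both before a member that rose (IL32) and before members near the floor (IL6, IL23A). These are matches of letters, and no binding was measured.

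Within the IL-1 family, IL18 and IL1A rose and IL1B did not pass. IL18, the cytokine that induces interferon-γ in lymphocytes, had signals of 13.61 and 13.76 with CDK8 siRNA, against 11.66 and 11.78 with control siRNA. Both CDK8 siRNA arrays lay above both control arrays, by far more than the distance between arrays of 1 group. The difference was 1.965 ± 0.085 (95% interval 1.745 to 2.185, adjusted p = 3.39e-04). A difference at least as high was found in 0.553% of all genes.

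IL1A, which encodes the alarmin IL-1α, had signals of 4.62 and 5.14 with CDK8 siRNA, against 3.86 and 3.81 with control siRNA. The groups did not overlap, but the CDK8 siRNA arrays lay further apart (SD 0.368) than the control arrays (SD 0.035). The difference was 1.045 ± 0.178 (95% interval 0.58 to 1.51, 2.06-fold, adjusted p = 0.0117). The control signals lay among the olfactory receptor genes and the CDK8 siRNA mean of 4.88 was just past their 95th percentile, so the fold starts from a floor signal, where RMA compresses differences. With the replicate number as a block limma gave an adjusted p of 0.0639, and leaving out either control array also ended the call (adjusted p = 0.172 without replicate 1 and 0.186 without replicate 2).

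IL1B, the neighbouring gene for IL-1β, had signals of 3.68 and 3.68 with CDK8 siRNA, against 3.55 and 3.54 with control siRNA. The groups did not overlap, but the difference of 0.135 ± 0.059 (95% interval -0.017 to 0.287, adjusted p = 0.168) was close to the 0.083 of the olfactory receptor genes. With arrays centred on their medians it was 0.06.

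Of the 3 ligands that use gp130, none passed. LIF, a factor known for keeping mouse embryonic stem cells undifferentiated, had signals of 6.58 and 6.35 with CDK8 siRNA, against 6.50 and 6.78 with control siRNA. The groups overlapped, and LIF was the 1 member of the 9 whose groups did. Its difference was -0.175 ± 0.130 (adjusted p = 0.396). The 95% interval of -0.51 to 0.16 holds falls of up to 0.51 and rises of up to 0.16.

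IL6, the acute-phase cytokine, had signals of 3.70 and 3.75 with CDK8 siRNA, against 3.65 and 3.59 with control siRNA. IL11, a factor of platelet formation and fibrosis, had 3.83 and 3.82 with CDK8 siRNA, against 3.73 and 3.74 with control siRNA. Both genes were marginally higher on both CDK8 siRNA arrays, by 0.105 ± 0.064 for IL6 (adjusted p = 0.303) and by 0.09 ± 0.059 for IL11 (adjusted p = 0.336). Neither shift stood out from that of the olfactory receptor genes, from which they differed by 0.023 (IL6) and 0.007 (IL11).

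IL23A, whose product pairs with the p40 chain encoded by IL12B, had signals of 4.26 and 4.24 with CDK8 siRNA, against 4.08 and 3.97 with control siRNA. Its difference of 0.225 ± 0.069 was the highest of the 4 members near the floor and did not pass (adjusted p = 0.0700). It was 0.151 with quantile normalization and 0.15 with centred arrays, and IL12B, named after its value was seen, stood at 3.92 and 3.75 with CDK8 siRNA, against 3.84 and 3.62 with control siRNA, also near the floor.

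CSF1, the macrophage colony-stimulating factor, had signals of 5.58 and 5.52 with CDK8 siRNA, against 4.90 and 4.86 with control siRNA. The pairs of arrays were tight and apart, the control mean of 4.88 lying at the edge of the olfactory receptor range. The difference was 0.67 ± 0.063 (95% interval 0.51 to 0.83, 1.59-fold, adjusted p = 0.00190), and 6.42% of all genes had one as high. Leaving out either control array ended the call, with limma adjusted p of 0.0573 without replicate 1 and 0.0623 without replicate 2.

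IL32 had signals of 6.62 and 6.72 with CDK8 siRNA, against 6.05 and 6.18 with control siRNA. The groups did not overlap and both were above the floor. The difference was 0.555 ± 0.079 (95% interval 0.35 to 0.76, 1.47-fold, adjusted p = 0.00657), and 8.23% of all genes had one as high. Each of the 4 fits that drop an array missed the threshold for IL32, at adjusted p of 0.0745 to 0.0934.

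**Figure D2:**
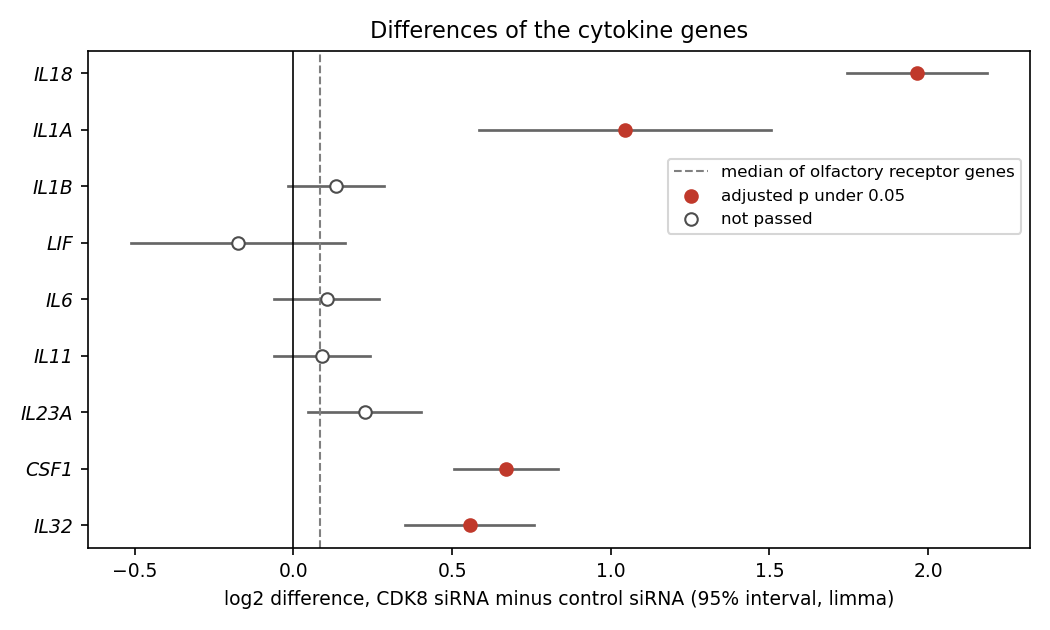
Log2 difference of CDK8 siRNA minus control siRNA (x axis) with its 95% interval from limma for the 9 cytokine genes (rows), filled where the adjusted p was under 0.05. IL18 at 1.965, IL1A at 1.045, CSF1 at 0.67 and IL32 at 0.555 are filled, and the open points of IL1B, IL6 and IL11 sit close to the dashed median of the olfactory receptor genes at 0.083.

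In 8 of the 9 members both CDK8 siRNA arrays lay above both control siRNA arrays, a pattern shown by 36.8% of all genes (63.4% did not overlap in either direction) and by 122 of the 366 olfactory receptor genes. Because 2 arrays against 2 cannot give an exact two-sided permutation p under 0.333, the p-values rest on limma's pooled spread. With control siRNA replicate 2 left out limma called 0 genes at all, so that every call given here was lost, CDK8 and IL18 included (adjusted p = 0.0520 for both), while 6472 genes and 3 of the 9 members had an unadjusted p under 0.05. IL18 kept a difference of 1.89 to 2.04 with any array left out.

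The members, and this and the following lists, were chosen with earlier results of these data known, so their counts describe and do not test a pathway. By size of difference, receptors of these cytokines and of close relatives were led by those of the gp130 group. Of 17 receptor, co-receptor and antagonist genes 6 rose, 0 fell and 11 did not pass, with a median difference of 0.06, beside 14.3% called higher and a median of 0.04 over all genes. IL6ST, the shared gp130 chain, had signals of 10.97 and 11.15 with CDK8 siRNA, against 8.43 and 8.42 with control siRNA, and was 6.21-fold higher (2.635 ± 0.082, adjusted p = 2.19e-04). OSMR, which pairs with gp130 to bind oncostatin M, was 3.71-fold higher (1.89 ± 0.080), at 11.73 and 11.79 with CDK8 siRNA, against 9.79 and 9.95 with control siRNA. LIFR, the chain that binds LIF, was 1.84-fold higher (0.88 ± 0.061), at 8.03 and 8.04 with CDK8 siRNA, against 7.13 and 7.18 with control siRNA. In all 3 the groups stood clearly apart, whereas the ligand-specific chain IL11RA was near the floor with 4.31 and 4.27 in CDK8 siRNA cells, against 4.36 and 4.34 in control siRNA cells. IL6R, named after its value was seen, was just above the floor at 4.93 and 4.86 with CDK8 siRNA, against 4.84 and 4.94 with control siRNA.

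Of the receptors of the IL-1 family, IL18R1 and IL1RAP were called. IL18R1, the chain that binds IL-18, rose 1.38-fold (0.46 ± 0.101, adjusted p = 0.0267), at 5.34 and 5.49 with CDK8 siRNA, against 4.85 and 5.06 with control siRNA, and none of the 4 fits that drop an array called it (adjusted p of 0.105 to 0.199). Its partner chain IL18RAP and the decoy IL18BP, both named after their values were seen, differed by 0.125 and -0.04 and did not pass, IL18RAP near the floor at 3.43 and 3.43 with CDK8 siRNA, against 3.29 and 3.32 with control siRNA. IL1R1, the signalling receptor of both IL-1 forms, stood at 6.17 and 6.03 with CDK8 siRNA, against 6.19 and 6.15 with control siRNA (-0.07 ± 0.075, adjusted p = 0.557). IL1RAP, the shared accessory chain, was called at 0.24 ± 0.059 on its brighter cluster (adjusted p = 0.0370), but lay near the floor and lost the call with quantile normalization (adjusted p = 0.0820), with centred arrays (adjusted p = 0.106), with the mean of its clusters, with the replicate block and with each array dropped. The antagonist IL1RN was near the floor, at 3.56 and 3.58 with CDK8 siRNA, against 3.53 and 3.49 with control siRNA. Among receptors of the colony-stimulating factors, CSF1R, the receptor of CSF1, was near the floor in both groups, at 3.99 and 4.03 with CDK8 siRNA, against 3.97 and 4.03 with control siRNA. CSF2RB differed by 0.015 near the floor, and CSF2RA by 0.36 ± 0.089 (adjusted p = 0.0383). The CSF2RA call was lost with centred arrays (adjusted p = 0.0709), with the replicate block (0.0520) and in each of the 4 fits that drop an array (0.0963 to 0.227).

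**Figure D3:**
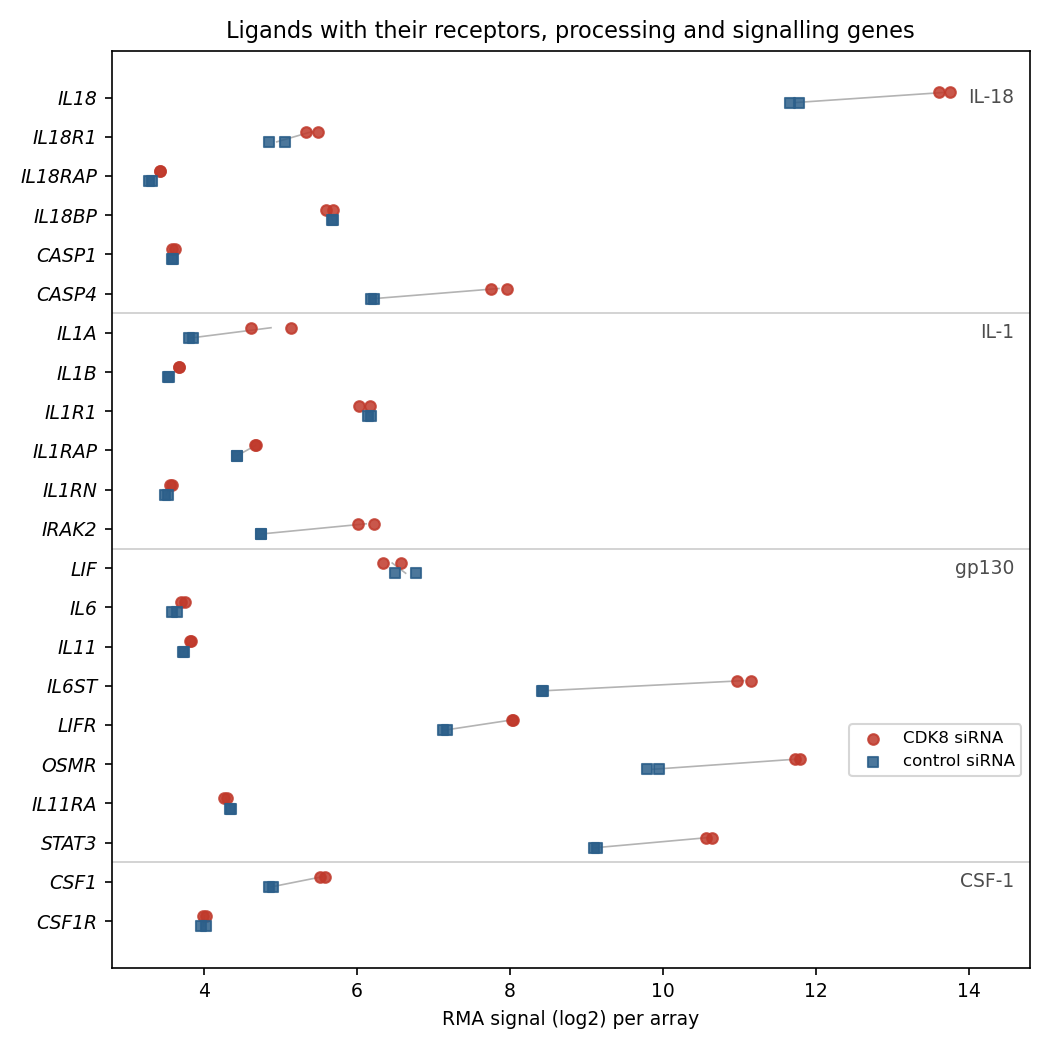
Log2 RMA signal (x axis) of ligands with their receptors, processing and signalling genes (rows, grouped by pathway), 1 point per array, CDK8 siRNA as red circles above control siRNA as blue squares. Genes called higher include IL18, CASP4, IRAK2, IL6ST, LIFR, OSMR, STAT3 and CSF1, while CASP1, IL1R1, IL1RN and CSF1R do not pass the test. Groups that do not overlap are also found in genes that did not pass, such as IL1RN, IL1B, IL6 and IL11.

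Among 12 measured inflammasome and processing genes 3 rose, 0 fell and 9 did not pass (median 0.025), beside 14.3% called higher and 15.5% lower over all genes. CASP4, the inflammatory caspase that senses bacterial lipopolysaccharide in the cytosol, was 3.14-fold higher (1.65 ± 0.093), at 7.75 and 7.97 with CDK8 siRNA, against 6.19 and 6.23 with control siRNA, a call also lost without control siRNA replicate 1 (adjusted p = 0.0530). ADAM17, a sheddase that releases membrane-bound cytokines and receptors, was 2.81-fold higher (1.49 ± 0.061), at 11.72 and 11.77 with CDK8 siRNA, against 10.25 and 10.26 with control siRNA. CASP5, the paralog of CASP4, was called at 0.355 ± 0.067 (adjusted p = 0.0162) with signals near the floor, and lost the call with the replicate block (adjusted p = 0.0509) and with each array dropped (0.0812 to 0.113). CASP1, a caspase that cuts the precursors of IL-18 and IL-1β, was near the floor at 3.59 and 3.63 with CDK8 siRNA, against 3.59 and 3.60 with control siRNA. The same held for the adaptor PYCARD, at 3.50 and 3.39 with CDK8 siRNA, against 3.49 and 3.41 with control siRNA. The sensor NLRP3 stood at 3.57 and 3.59 with CDK8 siRNA, against 3.47 and 3.50 with control siRNA.

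Of 11 measured genes of IL-1 receptor signalling 3 rose, 0 fell and 8 did not pass (median 0.015), beside the same 14.3% and 15.5% over all genes. IRAK2, a kinase-like adaptor of the receptor complex, rose by 1.375 ± 0.089, at 6.02 and 6.23 with CDK8 siRNA, against 4.75 and 4.75 with control siRNA, where it lay under the floor of 4.87. The IRAK2 call was also lost without control siRNA replicate 1 (adjusted p = 0.0567). The ubiquitin ligase TRAF6 was 1.54-fold higher (0.625 ± 0.085, adjusted p = 0.00588) and TOLLIP, an inhibitor of the pathway, 1.28-fold higher (0.355 ± 0.075, adjusted p = 0.0238). Dropping replicate 2 of CDK8 siRNA (adjusted p = 0.0516) or replicate 1 of control siRNA (0.108) also ended the TRAF6 call, and the TOLLIP call was lost with the replicate block (0.0930) and with each array dropped (0.0951 to 0.173). Of 13 JAK-STAT genes 4 rose, 2 fell and 7 did not pass (median -0.03), again beside 14.3% higher and 15.5% lower over all genes. STAT3, the main transcription factor downstream of gp130, rose by 1.485 ± 0.064 (adjusted p = 3.39e-04), at 10.64 and 10.57 with CDK8 siRNA, against 9.10 and 9.14 with control siRNA. SOCS2, a feedback inhibitor best known from growth hormone signalling, rose 2.11-fold (1.08 ± 0.097). JAK1 (0.625 ± 0.079) and JAK2 (0.68 ± 0.098), named after their values were seen, were the remaining genes called higher. Both calls needed all 4 arrays in the unfiltered fit. PTPN11, the phosphatase SHP2, fell by 1.09 on the log2 scale (± 0.067), to 12.53 and 12.61 with CDK8 siRNA, against 13.69 and 13.63 with control siRNA, and PIAS3, an inhibitor of STAT3, fell by 0.57 (± 0.064). The SOCS2 call was also lost without either CDK8 siRNA array (adjusted p = 0.0648 and 0.0694) and the PIAS3 call without control siRNA replicate 1 (0.0731). SOCS3, the feedback gene usually induced by STAT3 and named after its value was seen, was near the floor at 4.18 and 4.41 with CDK8 siRNA, against 4.59 and 4.17 with control siRNA.

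Of 25 other measured cytokine genes 21 were near the floor in both groups, 3 rose, 0 fell and 22 did not pass (median 0.105, beside 0.083 for the olfactory receptor genes). Over all genes 14.3% were called higher, so the share called higher among these cytokines is near that of all genes. Called lower were 0 of these cytokines, against 15.5% of all genes. IL15, a growth factor of natural killer and memory T cells, rose by 1.385 ± 0.103, at 5.60 and 5.86 with CDK8 siRNA, against 4.37 and 4.32 with control siRNA, where it lay under the floor. IL12A, the p35 chain of IL-12, was 1.59-fold higher (0.67 ± 0.061), at 5.60 and 5.63 with CDK8 siRNA, against 4.92 and 4.97 with control siRNA. IL7, a lymphocyte growth factor, was called at 0.38 ± 0.059 with signals near the floor. The IL15 and IL12A calls were also lost without control siRNA replicate 1 (adjusted p = 0.0630 for IL15 and 0.0564 for IL12A), and the IL7 call with each array dropped (0.0605 to 0.0915). CSF3, the granulocyte factor, named after its value was seen, was also near the floor, at 4.58 and 4.45 with CDK8 siRNA, against 4.43 and 4.56 with control siRNA.

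**Figure D4:**
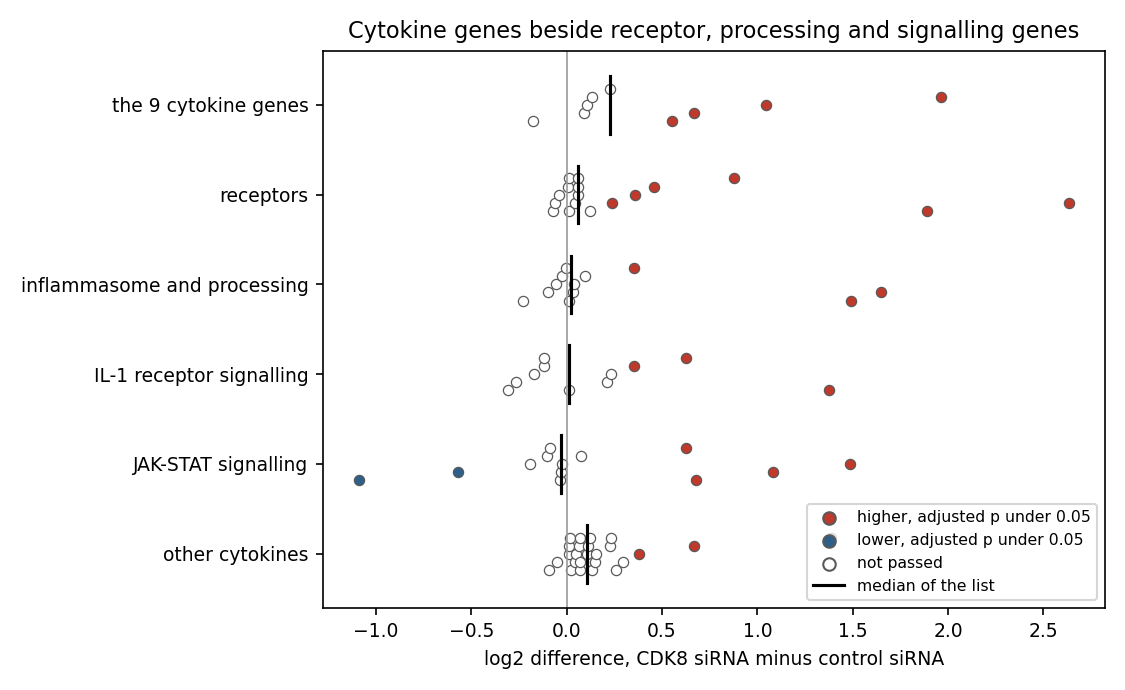
Log2 difference of CDK8 siRNA minus control siRNA (x axis) for each measured gene of the 9 cytokine genes and of 5 lists (rows), coloured where the adjusted p was under 0.05, with a black bar at the median of each list. The medians of the lists lie between -0.03 and 0.105 and that of the cytokine genes at 0.225, with IL6ST at 2.635 the point furthest right and PTPN11 at -1.09 the point furthest left.

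Most markers of other cell types lay near the floor. The counts called among markers stand beside 14.3% called higher and 15.5% lower over all genes. Of 10 leukocyte markers 9 did, among them PTPRC at 3.53 and 3.53 with CDK8 siRNA, against 3.49 and 3.41 with control siRNA, and 2 were called higher, CD68 and ITGAX. The summed linear signal of that list was 391.8 to 426.3 with CDK8 siRNA and 221.6 to 240.3 with control siRNA, and without CD68, the 1 marker of the 10 above the floor, it was 135.8 to 138.3 with CDK8 siRNA and 124 to 125.7 with control siRNA. Of 8 fibroblast markers 7 were near the floor and 3 were called higher (FAP, DCN and COL1A1), with sums of 134 to 138 with CDK8 siRNA and 112 to 114 with control siRNA. Of 6 endothelial markers 5 were near the floor and 1, ESAM, was called higher, with sums of 108 to 109.8 with CDK8 siRNA and 97.5 to 98.6 with control siRNA. None of these markers can be at 0 on this scale, and their part in the cytokine results was not tested. Of 10 epithelial markers 8 were above the floor, 3 were called higher (EPCAM, CDH1 and CLDN7), 0 lower and 7 did not pass. Of those 7, KRT18 (-0.335), CLDN4 (-0.135) and CDX2 (-0.14) had negative differences. KRT8 (0.045), KRT19 (0.43), CLDN3 (0.355) and VIL1 (0.095) had positive ones. The sums were 24538 to 27916 with CDK8 siRNA and 20272 to 20815 with control siRNA. CDX2 and VIL1, markers of differentiated intestinal epithelium, were near the floor. All RNA came from the HCT116 line, so these signals do not count cells of other types. In bulk RNA of a line, more cells with a transcript and more transcript per cell cannot be told apart.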

How the data were processed

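Total RNA of HCT116 cells was put on 4 Affymetrix arrays after biotin labelling, per the labels' protocols. The authors deposited log2 signals, for which the submitters' processing notes name RMA and Affymetrix Expression Console without a version. Groups and replicate numbers came from the sample titles. Of 70523 rows 67528 were transcript clusters, and 23781 had 1 gene symbol in the platform annotation. Symbols were updated through a RefSeq table (GRCh38.p14, 23777 matched, 306 changed). For the 528 genes with several clusters the one with the highest mean signal was used. No source names a build for the array, so coordinates are those of RefSeq promoters.

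All 22411 genes were fitted without a filter with limma 3.58.1 (lmFit, eBayes) in R 4.3.3, because a silent gene passes a filter on the mean only through a rise. The adjusted p is Benjamini-Hochberg over all genes. The fit was tested on simulated data. Named genes were the members, CDK8, up to 4 called genes of each list with the smallest p, and the receptors IL1R1, IL1RAP, IL1RN, IL6ST, IL11RA, LIFR, CSF1R, CSF2RA and CSF2RB and CASP1, PYCARD and NLRP3. Members and lists were chosen with earlier results of these data known. Marker genes are named outside that rule. The alternatives were a filter on low signal, other normalizations, variance priors, probe set rules, thresholds and floors, a replicate block and leaving out each array. The number of arrays limits the precision.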

Additional observations from a re-analysis of the deposited data

How the results depend on the processing

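The counts of 4 members called higher and 0 called lower were the same with a filter on mean signal, quantile normalization and centred arrays. An eBayes trend and robust eBayes also gave these counts. So did the mean of probe sets, but each member has 1 cluster, so its values could not change there. At an adjusted p threshold of 0.01, 3 members were called higher. IL1A (and IL7 of the pathway lists) passes the filter only through its CDK8 siRNA arrays, so its call there is no support. With the replicate block, 3 members were called higher (IL1A was lost) and 15 and 2 of the 78 measured genes of the 5 pathway lists (pathway genes) were called higher and lower, against 19 and 2 without it. The replicate numbers are not stated to mark a shared culture, deviations of same-numbered arrays correlated with r = 0.07, and the block leaves 1 residual degree of freedom. Leaving out each array gave 0 to 3 members and 0 to 10 pathway genes called higher, 0 to 2 pathway genes called lower, and 4 to 5 members near the floor. The lowest counts came without control siRNA replicate 2 (0 calls among all genes, 6472 at an unadjusted p under 0.05, of them 3 members and 23 pathway genes) and without control siRNA replicate 1 (1 member, 6 and 1 pathway genes). The fit with 3 arrays has 1 residual degree of freedom and takes the spread of a lone array from the other group. With a filter on low signal as well, added after seeing the data, the same 4 fits called 2 to 4 members higher (2 to 3 leaving IL1A aside), and 11 to 14 pathway genes higher and 2 lower. Centred arrays gave 5 pathway genes called lower, by construction moved down by the shift between array medians. With the 99th percentile of the olfactory receptor genes as floor, at 8.83 with CDK8 siRNA and 8.53 with control siRNA, 8 members counted as near the floor and only IL18 as above it. Of the members, pathway genes and CDK8, none of the 26 called changed sign under any alternative, while 30 of the 62 that did not pass changed sign under at least 1. The groups of all 26 did not overlap, so leaving out an array could not change their sign. The filter, variance priors, block and threshold leave the difference as it is. The kept signs are therefore no support for the calls.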
